A study of Mus musculus with 16 samples.

Results

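Human chromosome 21 corresponds to stretches of 3 mouse chromosomes, and the Dp16 duplication covers the stretch on chromosome 16. The genes described here are the orthologs that lie outside it, on mouse chromosomes 10 and 17, and so are present in 2 copies in every genotype of the study, whereas genes of the Dp16 segment have 3 copies in carriers. They were taken from the count table as the rows whose symbol is on a list of 37 such orthologs and whose chromosome is 10 or 17. All 37 were found among 55385 genes, 28 on chromosome 10 and 9 on chromosome 17. Neither the rule nor the list used an expression value, though the orthologs were chosen with earlier results of these data known.

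The measurement was polyadenylated RNA sequencing of cortex, taken at 5 months of age from 16 mice, 4 of each genotype. The 5xFAD-Dp16 mice carried both alterations and were all male, while the 5xFAD, Dp16 and wild-type groups each held 2 males and 2 females, and the wild-type mice (WT) were C57BL/6J. In 5xFAD mice, human genes bearing mutations of familial Alzheimer disease are expressed from the neuronal Thy1 promoter, so that the amyloid load is driven from neurons and not from the mouse App locus. Dp16 mice carry a tandem duplication of the chromosome 16 segment, here from Lipi to Zbtb21, and they lack the extra copy of the genes on chromosomes 10 and 17 that a person with trisomy 21 would have. The labels give each library as a separate sample of its genotype, and p-values measure the spread between these samples.

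The genes have no common pathway and are grouped below by what their products do. They include the collagen VI chains Col6a1 and Col6a2, the reduced folate carrier Slc19a1 and the transsulphuration enzyme Cbs. Others are the pyridoxal kinase Pdxk that makes the active form of vitamin B6, the RNA editing enzyme Adarb1 and ribosome assembly factors. The cathepsin inhibitor Cstb and the leukocyte integrin chain Itgb2 are also among them. Several are studied in Down syndrome because trisomy raises the dosage of folate, sulphur amino acid and matrix genes there, and a model that leaves them at normal copy number can show only indirect effects on them.

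Promoter sequence is shown for the 4 genes that had the smallest p-values for the average effect of the duplication among those with a listed promoter, namely Pdxk, Slc19a1, Lrrc3 and Agpat3, a choice made after their values were seen. Each run is the 300 bases from 250 before to 50 after a transcription start, 5′ to 3′ on the strand of the gene, from RefSeq on GRCm38.p6, and capitals mark the GC box GGGCGG, the site recognised by Sp1, or its complement CCGCCC.
Pdxk, chr10:78464899-78465198, minus strand: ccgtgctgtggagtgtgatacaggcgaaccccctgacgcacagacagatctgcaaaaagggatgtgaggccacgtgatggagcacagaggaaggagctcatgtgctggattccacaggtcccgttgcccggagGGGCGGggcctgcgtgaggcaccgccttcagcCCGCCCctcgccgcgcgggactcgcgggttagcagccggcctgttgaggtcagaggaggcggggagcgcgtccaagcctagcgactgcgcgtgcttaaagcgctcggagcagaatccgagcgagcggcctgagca
Slc19a1, chr10:77032489-77032788, plus strand: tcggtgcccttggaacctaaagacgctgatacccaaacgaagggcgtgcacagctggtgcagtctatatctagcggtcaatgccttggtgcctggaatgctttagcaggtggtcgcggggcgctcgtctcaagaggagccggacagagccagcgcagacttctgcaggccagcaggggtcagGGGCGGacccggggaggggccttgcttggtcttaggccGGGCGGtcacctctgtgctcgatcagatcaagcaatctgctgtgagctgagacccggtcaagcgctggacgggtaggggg
Lrrc3, chr10:77902487-77902786, minus strand: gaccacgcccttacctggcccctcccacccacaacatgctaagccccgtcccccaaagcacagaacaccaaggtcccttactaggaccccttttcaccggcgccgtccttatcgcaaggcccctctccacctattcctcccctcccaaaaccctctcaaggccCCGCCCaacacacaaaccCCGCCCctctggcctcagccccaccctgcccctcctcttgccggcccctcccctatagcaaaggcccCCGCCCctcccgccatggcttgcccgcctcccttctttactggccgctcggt
Agpat3, chr10:78351651-78351950, minus strand: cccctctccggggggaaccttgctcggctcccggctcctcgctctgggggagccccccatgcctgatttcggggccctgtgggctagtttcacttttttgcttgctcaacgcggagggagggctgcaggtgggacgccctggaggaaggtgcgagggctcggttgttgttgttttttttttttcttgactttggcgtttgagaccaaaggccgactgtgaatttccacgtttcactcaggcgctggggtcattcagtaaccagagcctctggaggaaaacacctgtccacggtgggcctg
The Pdxk and Slc19a1 windows each held 2 GC boxes, the Lrrc3 window 3 and the Agpat3 window 0. Slc19a1 has another listed window, chr10:77032962-77033261, with 0 GC boxes; the one printed is the first in the direction of transcription. RefSeq promoters matched 29 of the 37 genes, with 36 windows, and 24 of those windows held a GC box on either strand, against 35.7% of 32851 promoters of the same length. Some genes gave several windows, and those of U2af1 and of Col6a2 overlap, so the windows are not independent. The median GC content of the windows was 62.3%, against 52.7% over all promoters. The other motifs searched on both strands were CCAAT, found in 10 windows against 37.4% of promoters, TATAAA, found in 3 against 13.6%, and the E box CACGTG, found in 3 against 7.15%. CACGTG, which basic helix-loop-helix factors bind, was present in the Pdxk window and in none of the other 3 printed. These matches describe letters only, and no promoter was listed for Cstb, Itgb2, Pcbp3, Pde9a, Pknox1, Rsph1, Ube2g2 and Ybey.

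Libraries held 12483286 to 20385010 counted reads. App, which lies in the duplicated segment, averaged 1748 CPM (each gene's share of the counted reads, scaled to a common library size by TMM factors) in 5xFAD-Dp16, 837 in 5xFAD, 1614 in Dp16 and 1155 in WT, and Thy1 averaged 1647, 1640, 863 and 886 CPM in the same order of genotypes. App did not overlap between 5xFAD-Dp16 and 5xFAD but did between Dp16 and WT, where the lowest Dp16 library had 1404 CPM and the highest WT library 1507 CPM, so it does not check the label of each library. Thy1 did not overlap between carriers of the 5xFAD transgenes and the other genotypes. The cortical excitatory neuron markers Slc17a7, Camk2a and Neurod6 were detected in each group. Libraries differed in how their expression followed gene length: the rank correlation across genes of length with a library's deviation from the mean was lowest, at -0.46, in 5xFAD replicate 3 and highest, at 0.45, in 5xFAD-Dp16 replicate 1. All 4 5xFAD-Dp16 libraries had a positive value. Gene length here and below is the length by which the deposited RPKM values divide the counts, and not the gene's span on the chromosome. 5xFAD replicate 3 and WT replicate 2 were least like the others, with median correlations of 0.938 and 0.939, against 0.953 to 0.972 for the remaining libraries.

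In WT cortex the orthologs spanned from abundant to undetected. On the RPKM scale, which divides by gene length, Rrp1, a nucleolar protein of ribosome assembly, was the most abundant at 139 ± 21.4 (SD, n = 4), and its lowest library stood above the highest library of the next gene. Cstb, the cystatin that inhibits lysosomal cathepsins, followed at 76.2 ± 16.5 RPKM, and its range overlapped that of Sumo3, a small protein conjugated to other proteins, at 58.2 ± 5.71 RPKM. U2af1, which recognises the 3′ splice site, and Ube2g2, a ubiquitin-conjugating enzyme of endoplasmic reticulum quality control, stood at 35.6 ± 3.69 and 34.3 ± 1.92 RPKM and overlapped each other. From U2af1 down to Agpat3 each gene's range overlapped that of its neighbour in the order, and the next gap without overlap lay between Agpat3 at 20.3 and Pcbp3 at 13.1 RPKM. At the lower end, Col18a1, the precursor of endostatin, had 0.141 ± 0.0568 RPKM. The order of the 37 genes was alike in all genotypes, with rank correlations of their mean RPKM between 0.988 and 0.995 over the 6 pairs of groups, given as a description of the same genes in libraries of 1 tissue.

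Of the 37 genes, 34 passed edgeR's filter on low counts and were tested. Spatc1l, a spermatogenesis-associated gene, had 0 reads in all 16 libraries. Ftcd, a folate-dependent enzyme of histidine breakdown that is typical of liver, had 29 reads over 7 libraries, of which 12 lay in Dp16 replicate 3 and 7 in 5xFAD-Dp16 replicate 2. These are the libraries with the highest summed ependyma and choroid plexus markers, 116 CPM in Dp16 replicate 3 and 699 CPM in 5xFAD-Dp16 replicate 2, against 16.1 to 35.5 CPM in the other 14, and the part of those cells in the Ftcd reads was not tested. Hsf2bp, a meiotic gene, had 91 reads over 14 libraries, with 20 in 5xFAD replicate 4 and 19 in WT replicate 2.

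The comparison of Dp16 with WT asks whether genes outside the duplicated segment move when the segment is present, without amyloid transgenes. edgeR called 0 of the 34 orthologs at an adjusted p under 0.05, and 0.0176% of all 17019 tested genes. DESeq2 called 0 of them too, against 0.206% of genes, and 2 of them had an unadjusted edgeR p under 0.05, against 3.88% of genes. Of the pair, Lrrc3 stood higher, against 2.48% of genes, and Cbs lower, against 1.40%. Their median log2 difference, Dp16 minus WT, was 0.07, with 19 of 34 above 0, whereas the 105 tested genes of the triplicated segment had a median of 0.55, with 94 above 0, and all other genes a median of 0.0017. No ortholog had Dp16 and WT libraries that did not overlap, against 2.29% of genes. Without Dp16 replicate 3 the orthologs' median was -0.04.

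The comparison of 5xFAD-Dp16 with 5xFAD asks the same on the amyloid background. edgeR called 0 of the 34, where 0% of all genes were called. DESeq2 called 3, Pdxk, Agpat3 and Slc19a1, against 6.49% of the 11408 genes to which it gave an adjusted p. An unadjusted edgeR p under 0.05 was reached by 9 of the 34, against 23.8% of genes: 8 stood higher, against 11.8% of genes, and 1, Cstb, lower, against 12.004%. Rrp1, Slc19a1 and Ube2g2 had groups that did not overlap, against 11.5% of genes. Without the filter on low counts edgeR called 4 of 36 orthologs and 7.60% of 29145 genes, and among males alone 9 of 34 orthologs and 22.5% of genes. Their median log2 difference, 5xFAD-Dp16 minus 5xFAD, was 0.34, with 23 of 34 above 0, against 0.51 for the triplicated segment and -0.0022 for all other genes. That median was 0.17 without 5xFAD replicate 3, and 0.20 once the trend with gene length was removed from each library. With the GC content trend removed as well, an alternative chosen after seeing the data, it was 0.06. The 4 5xFAD-Dp16 mice were male and the fit rests on an additive sex term for this comparison.

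**Figure D1:**
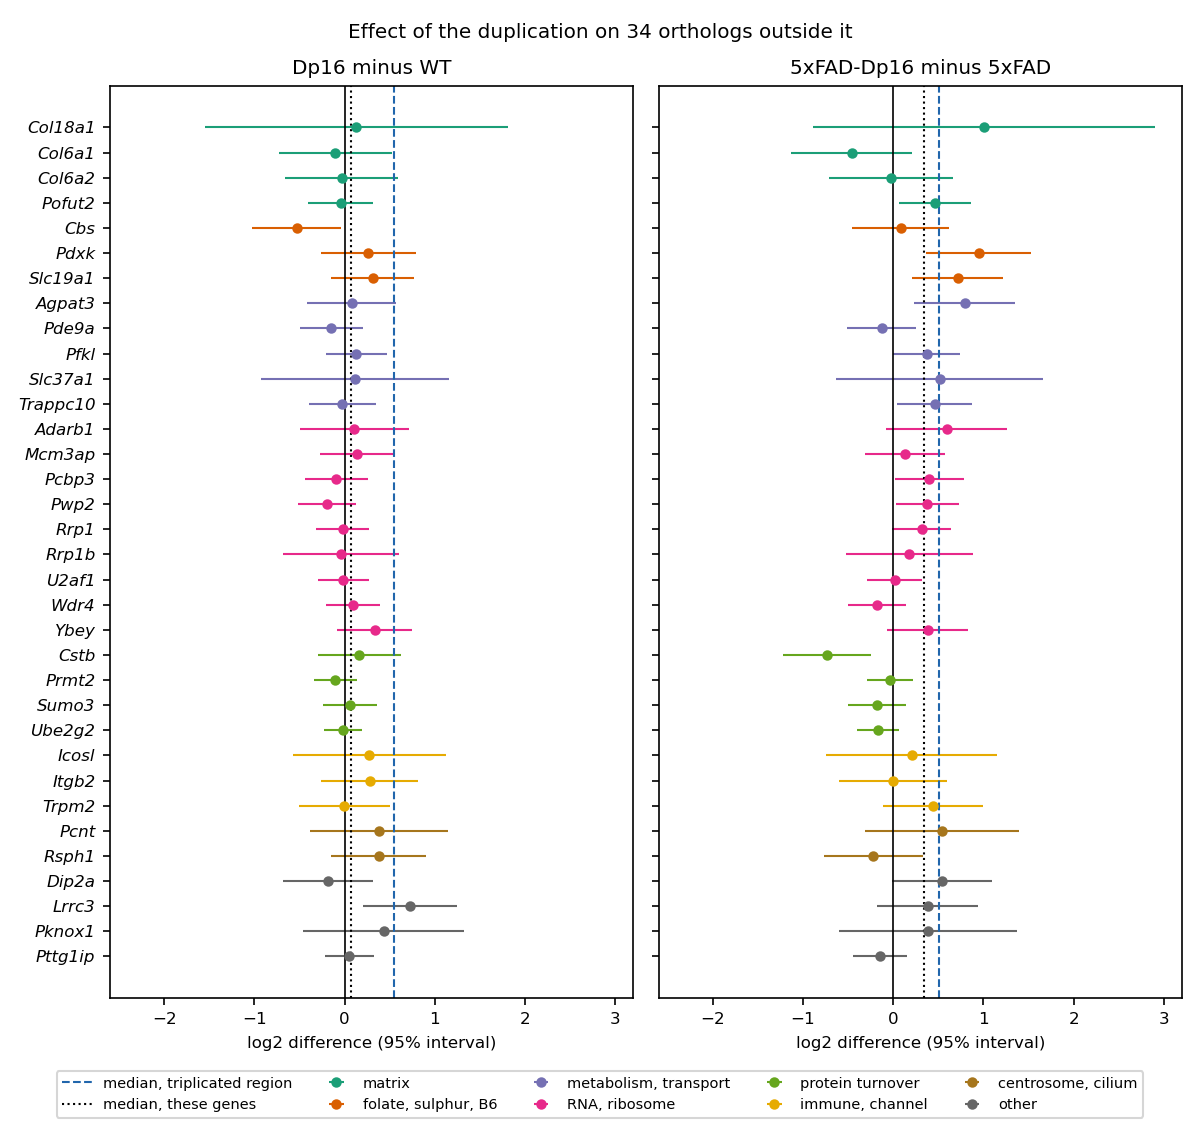
Log2 difference of each tested ortholog (point) with its 95% interval computed from edgeR's F statistic (bar), coloured by role. Dp16 minus WT is on the left and 5xFAD-Dp16 minus 5xFAD on the right. The dotted line marks the median of these genes, 0.07 and 0.34, and the dashed line the median of the triplicated segment, 0.55 and 0.51.

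The intervals bear on how large an indirect effect could have been. A gene with 3 copies in place of 2 would stand 1.5-fold higher, or 0.58 on the log2 scale, if its transcript followed copy number. In Dp16 against WT the 95% interval ended below that value for 19 of the 34 orthologs, or 55.9%, against 56.4% of all tested genes and 7 of the 105 genes of the triplicated segment. For the average of both duplication comparisons it ended below that value for 22 of the 34, against 62.9% of genes and 16 of the 105. In 5xFAD-Dp16 against 5xFAD this held for 11 of the 34, against 48.7% of genes and 19 of the 105. The lowest upper bounds of the average effect belonged to Cstb at 0.05, Ube2g2 at 0.06 and Prmt2 at 0.10. For Cstb the bound goes with a negative estimate, between -0.45 and -0.01 over every setting run. Its group coefficients of variation ran from 18 to 33%. For 12 orthologs, among them Pdxk, Slc19a1, Lrrc3 and Agpat3, the interval of the average effect included 0.58 or ran past it, so a difference of that size was within the range for them.

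Among the genes of folate, sulphur amino acid and vitamin B6 metabolism, Pdxk and Slc19a1 stood higher in 5xFAD-Dp16 than in 5xFAD without passing edgeR's test, and Dp16 and WT overlapped for both. Pdxk, at chr10:78436744-78464975, had 99.0, 63.7, 83.9 and 71.6 CPM in 5xFAD-Dp16 and 64.9, 61.0, 29.8 and 43.2 CPM in 5xFAD. Only the highest 5xFAD library reached into the 5xFAD-Dp16 range, and the lowest values were those of the 5xFAD males, replicates 3 and 4. In the other pair Pdxk had 72.3, 56.1, 88.0 and 59.0 CPM in Dp16 and 45.5, 46.3, 45.8 and 102 CPM in WT, so 3 WT libraries lay below all Dp16 libraries and the fourth lay above them. The fitted log2 difference was 0.95 (SE 0.27, adjusted p = 0.155 by edgeR, 0.035 by DESeq2) for 5xFAD-Dp16 minus 5xFAD and 0.26 (SE 0.25) for Dp16 minus WT. Once library length trends were taken out, the 5xFAD-Dp16 difference was 0.73 (edgeR adjusted p = 0.128), and without 5xFAD replicate 3 it was 0.75. Over every setting run it lay between 0.59 and 1.14.

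Slc19a1, the carrier of reduced folates at chr10:77032241-77061002, had 12.5, 8.48, 10.1 and 9.30 CPM in 5xFAD-Dp16 and 7.97, 6.34, 6.14 and 5.62 CPM in 5xFAD, without overlap. In Dp16 it had 11, 7.70, 10.6 and 10.4 CPM, and in WT 8.45, 5.12, 7.63 and 10.5 CPM, which overlap. Its log2 difference was 0.71 (SE 0.24, edgeR adjusted p = 0.155, DESeq2 0.0496) on the amyloid background and 0.31 (SE 0.22) off it. Without 5xFAD replicate 3 the first of these was 0.71. The 3′ ends of Slc19a1 and Col18a1 overlap by 8825 bases on opposite strands. The strand setting of the counting is not given in the sources used here, so reads in the shared bases cannot be told apart. Col18a1 had 250 reads in all against 2439 for Slc19a1.

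Cbs, which condenses serine and homocysteine to cystathionine, pointed the other way in Dp16, with 14.5, 11.5, 10.6 and 7.22 CPM in Dp16 and 15.5, 11.7, 16.9 and 19.0 CPM in WT. The groups overlapped only through Dp16 replicate 1 and WT replicate 2. Its log2 difference was -0.53 (SE 0.23, edgeR adjusted p = 1), and on the amyloid background it was 0.08 (SE 0.25), with means of 12.7 ± 2.66 CPM in 5xFAD-Dp16 and 12.3 ± 2.33 CPM in 5xFAD (SD, n = 4 each). Cth, the next enzyme of the same route, averaged 6.59 CPM in Dp16 and 4.46 CPM in WT, and 3.94 CPM in 5xFAD-Dp16 and 5.71 CPM in 5xFAD. Neither of its differences passed edgeR's test (adjusted p = 1 and 0.163).

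**Figure D2:**
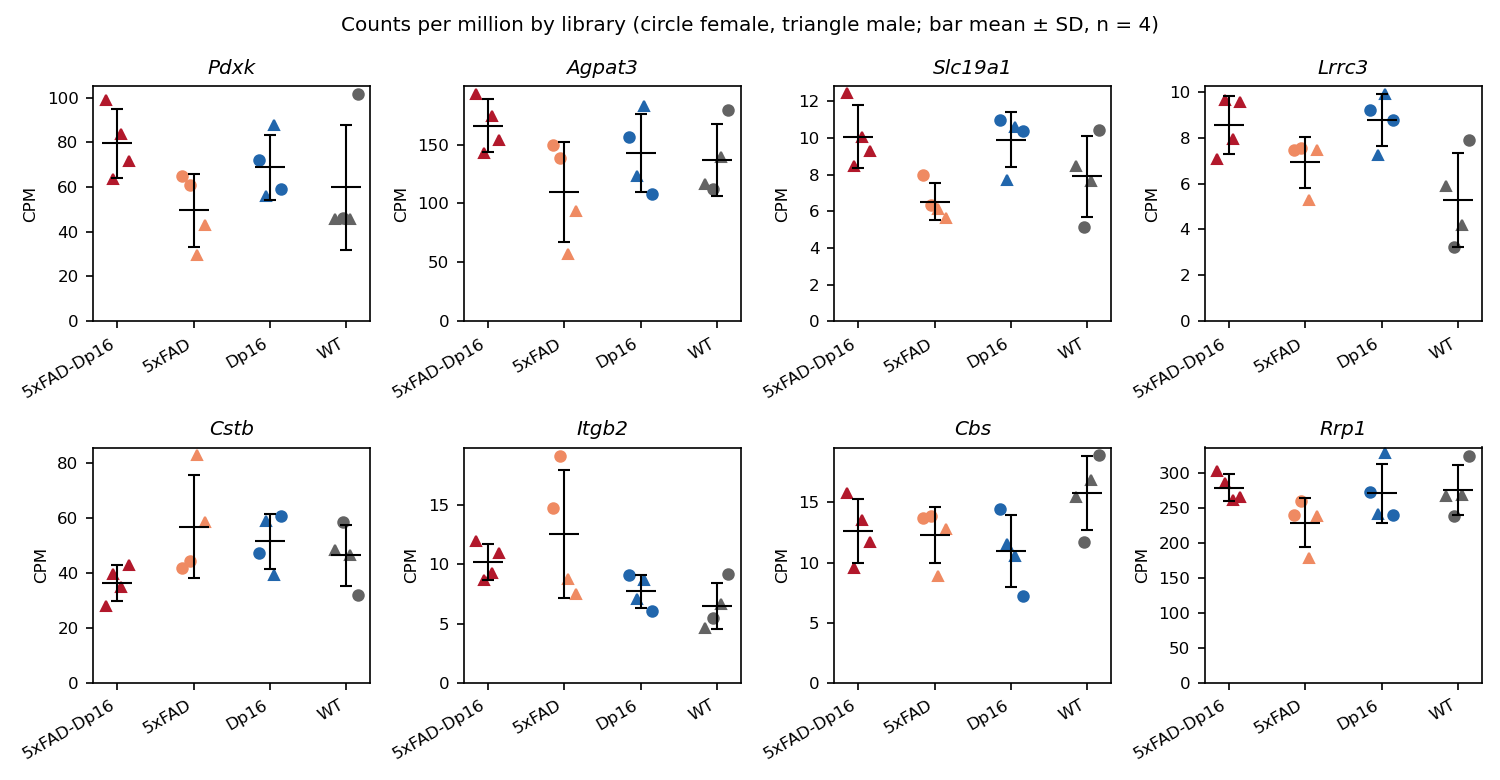
CPM of 8 orthologs in every library, with circles for females, triangles for males and bars for the mean ± SD of 4 libraries. In Slc19a1 the 5xFAD-Dp16 and 5xFAD libraries do not overlap, while in Pdxk, Agpat3 and Cstb the 2 male 5xFAD libraries lie farthest from the 5xFAD-Dp16 ones.

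In the group of metabolism and transport, Agpat3, an acyltransferase that makes phosphatidic acid and acts at the Golgi, showed the largest difference on the amyloid background. It had 193, 143, 174 and 154 CPM in 5xFAD-Dp16 and 150, 138, 56.9 and 93.5 CPM in 5xFAD, and 156, 124, 183 and 108 CPM in Dp16 against 116, 112, 139 and 180 CPM in WT. The low values were again 5xFAD replicates 3 and 4, and Dp16 and WT overlapped over most of their range. Its log2 difference was 0.79 (SE 0.26, edgeR adjusted p = 0.155, DESeq2 0.049) for 5xFAD-Dp16 minus 5xFAD, 0.49 without 5xFAD replicate 3, and 0.08 (SE 0.23) for Dp16 minus WT. Agpat4, a paralog on another chromosome, averaged 58.4 and 58.7 CPM in 5xFAD-Dp16 and 5xFAD.

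Trappc10, a subunit of the Golgi tethering complex TRAPP II, averaged 67.5 ± 9.87 CPM in 5xFAD-Dp16 and 54.0 ± 12.9 CPM in 5xFAD (SD, n = 4 each), a log2 difference of 0.46 (SE 0.20, edgeR adjusted p = 0.180). Pfkl, the liver-type subunit of phosphofructokinase, averaged 94.5 ± 11.7 and 76.8 ± 13.9 CPM in the same groups, a difference of 0.37 (SE 0.18, edgeR adjusted p = 0.208), and its paralogs Pfkm and Pfkp had differences of 0.22 and 0.07. Pde9a, a cyclic GMP phosphodiesterase, had negative differences in both duplication comparisons, -0.15 in Dp16 and -0.13 on the amyloid background. Slc37a1, a sugar phosphate exchanger, was low at 1.26 to 1.64 CPM per group mean, and its intervals were among the widest. In Dp16 against WT the 5 genes of this group lay between -0.15 and 0.13.

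The 9 genes of RNA processing and ribosome assembly lay between -0.20 and 0.33 in Dp16 minus WT, with 4 above 0, and between -0.18 and 0.59 in 5xFAD-Dp16 minus 5xFAD, with 8 above 0. Rrp1 had 303, 286, 261 and 266 CPM in 5xFAD-Dp16 and 240, 260, 179 and 239 CPM in 5xFAD. The ranges did not overlap, though the nearest libraries of each group differed by little, and 5xFAD replicate 3 was the lowest of the 16. The difference was 0.32 (SE 0.15, edgeR adjusted p = 0.221), against -0.02 (SE 0.14) for Dp16 minus WT. Pwp2, a component of the small-subunit processome, and Pcbp3, a poly(C)-binding protein, had differences of 0.38 and 0.40 on the amyloid background (edgeR adjusted p = 0.189 and 0.194).

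Adarb1, which deaminates adenosine in glutamate receptor transcripts, had 94.4, 57.9, 77.5 and 70.2 CPM in 5xFAD-Dp16 and 72.3, 70.2, 30.5 and 52.0 CPM in 5xFAD. The difference of 0.59 (SE 0.32, edgeR adjusted p = 0.259) was 0.32 without 5xFAD replicate 3, and the groups overlapped. Adar, a related editing enzyme, averaged 87.2 CPM in 5xFAD-Dp16 and 57.6 CPM in 5xFAD, a difference of 0.76 (SE 0.22, edgeR adjusted p = 0.155). Ybey, an endoribonuclease, was positive in both duplication comparisons at 0.33 (SE 0.20) and 0.38 (SE 0.21). U2af1 lay within 0.02 of 0 in both, Wdr4, a subunit of the tRNA m7G methyltransferase, at 0.09 in Dp16 and -0.18 on the amyloid background, and Mcm3ap, which takes part in mRNA export, at 0.14 and 0.13. Rrp1b, a paralog of Rrp1 on chromosome 17, was low at 3.33 to 3.77 CPM per group mean and lay at -0.04 and 0.18.

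The 4 genes of protein modification and turnover were the one group with no positive difference in 5xFAD-Dp16 minus 5xFAD. Cstb had 27.8, 39.6, 34.9 and 42.7 CPM in 5xFAD-Dp16 and 41.8, 44.1, 82.8 and 58.4 CPM in 5xFAD. All 5xFAD-Dp16 libraries but the highest lay below the lowest 5xFAD library, and the largest values were those of 5xFAD replicates 3 and 4. In Dp16 it had 47.3, 58.9, 39.3 and 60.5 CPM and in WT 48.2, 58.6, 46.4 and 31.9 CPM, which overlap. The log2 difference was -0.73 (SE 0.23, edgeR adjusted p = 0.155, DESeq2 0.053) on the amyloid background and 0.16 (SE 0.22) off it. Without 5xFAD replicate 3 the first of these was -0.46. Cstb is the shortest of the 34 genes at 0.603 kb, and with the length trend removed the difference on the amyloid background was -0.24 (edgeR adjusted p = 0.251).

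Ube2g2 had 54.7, 64.3, 59.1 and 64.5 CPM in 5xFAD-Dp16 and 70.4, 67.7, 67.7 and 69.8 CPM in 5xFAD, without overlap. The shift was small, at -0.17 (SE 0.11, edgeR adjusted p = 0.335), in a gene whose group coefficients of variation ran from 2.1 to 7.7%. Prmt2, an arginine methyltransferase, lay at -0.10 in Dp16 and -0.03 on the amyloid background, and Sumo3 at 0.06 and -0.18. The cathepsins that Cstb can inhibit gave, on the amyloid background, -0.75 for Ctsh, -0.35 for Ctsl, -0.28 for Ctss and -0.17 for Ctsb (edgeR adjusted p = 0.155, 0.157, 0.289 and 0.313).

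The matrix genes showed no common direction. Col6a1, the alpha 1 chain of collagen VI, had 4.83, 9.14, 5.43 and 6.99 CPM in 5xFAD-Dp16 and 10.2, 12.6, 11.6 and 6.41 CPM in 5xFAD, a difference of -0.46 (SE 0.32, edgeR adjusted p = 0.370). The groups overlapped, and in Dp16 minus WT it lay at -0.10 (SE 0.30). Its partner chain Col6a2 lay within 0.03 of 0 in both comparisons, with group means of 3.95 to 4.31 CPM. Pofut2, which adds fucose to thrombospondin repeats, lay at -0.04 in Dp16 and 0.46 on the amyloid background (edgeR adjusted p = 0.171). Col18a1 had 1 to 41 reads per library, and its difference of 1.01 (SE 0.90) on the amyloid background is too imprecise to rank. Summed markers of mural cells and fibroblasts, the cells that make much of this matrix, were Pdgfrb, Rgs5, Acta2, Col1a1, Col1a2, Dcn, Lum and Pdgfra. Sums ran from 253 to 304 CPM in 5xFAD-Dp16, 244 to 321 in 5xFAD, 260 to 342 in Dp16 and 253 to 304 in WT. They do not separate these cells from others that express the same genes.

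Of the remaining genes, Lrrc3, a leucine-rich repeat membrane protein, stood apart in Dp16. It had 9.23, 7.24, 9.92 and 8.76 CPM in Dp16 and 5.89, 3.22, 4.18 and 7.89 CPM in WT. WT replicate 4 lay above the lowest Dp16 library and the other WT libraries lay below it. The log2 difference was 0.72 (SE 0.25, edgeR adjusted p = 0.973, DESeq2 0.400), and leaving out single libraries gave 0.53 to 0.98. On the amyloid background Lrrc3 had 7.07, 9.64, 7.94 and 9.58 CPM in 5xFAD-Dp16 and 7.45, 7.54, 5.28 and 7.48 CPM in 5xFAD, a difference of 0.38 (SE 0.26).

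Dip2a, which lies over S100b by 1731 bases on the other strand, had differences of -0.18 in Dp16 and 0.54 on the amyloid background (edgeR adjusted p = 1 and 0.221). S100b had 92789 reads in all against 6604 for Dip2a, and reads in the shared bases cannot be told apart without the strand setting. Pcnt, the centrosomal scaffold pericentrin, was positive in both at 0.38 (SE 0.36) and 0.54 (SE 0.40) with means of 4.39 to 6.04 CPM, and Pknox1, a homeodomain cofactor, at 0.43 (SE 0.42) and 0.39 (SE 0.47). Rsph1, a radial spoke protein of motile cilia, lay at 0.38 and -0.22, and Pttg1ip, a membrane protein, at 0.05 and -0.15. The channel and immune genes Trpm2 and Icosl, the ligand of ICOS, had no difference above 0.44 in either duplication comparison. The Trpm2 difference on the amyloid background, the 0.44, was 0.25 without 5xFAD replicate 3.

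Averaged over both backgrounds, the duplication was associated with no call in edgeR (0 of 34, against 0.0940% of genes) or in DESeq2 (0, against 0.770%). Of the orthologs, 5, or 14.7%, had an unadjusted edgeR p under 0.05, against 15.024% of genes. All 5 stood higher in carriers, against 7.27% of genes, and 0 lower, against 7.76%: Pdxk, Slc19a1, Lrrc3, Ybey and Agpat3. Their average differences were 0.60, 0.51, 0.55, 0.36 and 0.43 (edgeR adjusted p = 0.322 for each), and that of Agpat3 was 0.28 without 5xFAD replicate 3. With the trend with gene length removed, 4 orthologs had an unadjusted edgeR p under 0.05 and stood higher, against 7.29% of genes. In that setting 1 stood lower, against 7.87%. The median over the 34 genes was 0.15, with 23 above 0, and 0.08 without 5xFAD replicate 3, against 0.51 and 101 of 105 for the triplicated segment, of which 15 were called. Without the filter edgeR called 2 orthologs and 3.76% of genes, and among males alone 2 and 14.2%, each time Pdxk and Agpat3.

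The differences on the amyloid background followed gene length as used for RPKM, which is not the span on the chromosome. The 17 longer orthologs, at or above their median length of 4.00 kb, had a median of 0.39 in 5xFAD-Dp16 minus 5xFAD, with 14 above 0, and the 17 shorter ones a median of 0.02, with 9 above 0. Over the other tested genes, those at or above the same length had a median of 0.25 and those below it -0.15. After removal of the length trend the longer and shorter orthologs had medians of 0.20 each, and other genes medians of -0.0039 and -0.02. Excitatory neuron markers differed between the same groups, with sums over 3 genes of 2100.2 to 3425 CPM in 5xFAD-Dp16 and 839.9 to 2067 CPM in 5xFAD, without overlap, and their part in these differences was not tested. Within WT the same sum ran from 1283 CPM in replicate 2 to 3240 CPM in replicate 4. Those libraries had the lowest and highest rank correlation with length in WT, -0.36 and 0.43. Inhibitory neuron sums overlapped, at 1042 to 1092 CPM in 5xFAD-Dp16 and 1035 to 1291 CPM in 5xFAD. In bulk tissue fewer cells of a type, less RNA per cell and a length trend of the library cannot be told apart here.

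**Figure D3:**
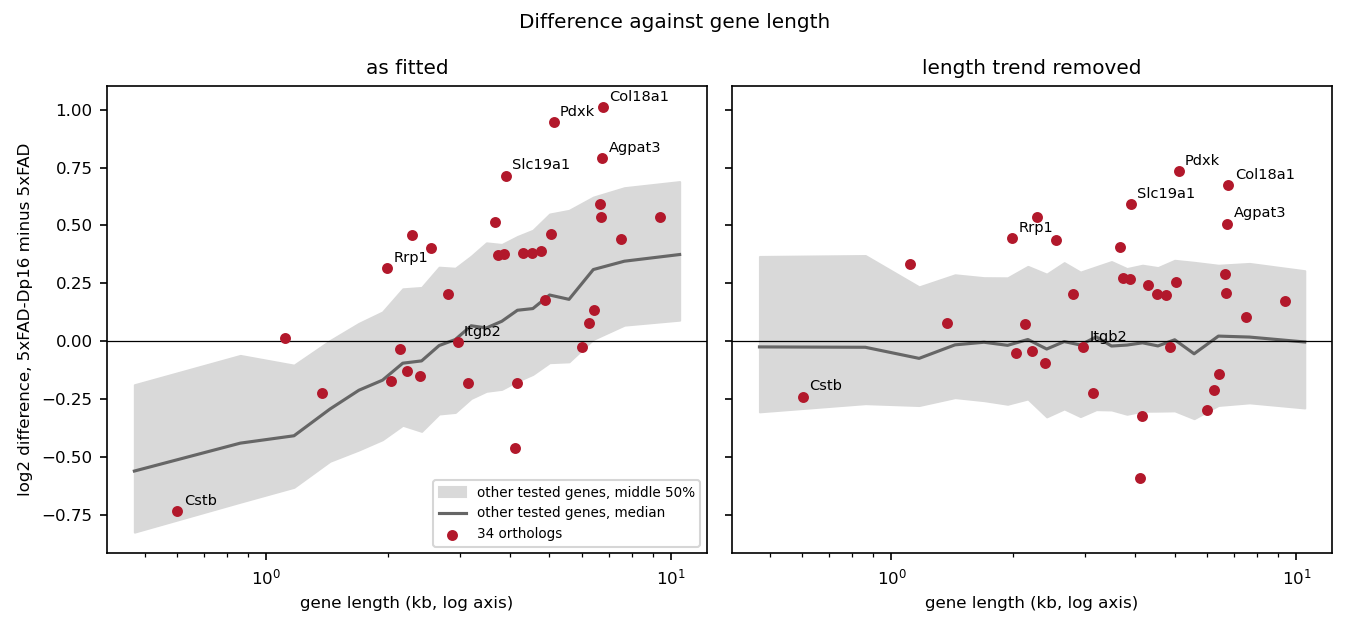
Log2 difference, 5xFAD-Dp16 minus 5xFAD, against gene length on a log axis, as fitted on the left and with the length trend removed on the right; red points are the 34 orthologs, the line and band the median and middle 50% of other tested genes in bins of length. Pdxk, Agpat3 and Slc19a1 lie above the band in both panels, and Cstb, the shortest gene, lies near the lower edge of the band on the left and inside it on the right.

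The same trend was visible library by library. The median deviation of the longer orthologs from their mean over libraries was 0.53 in 5xFAD-Dp16 replicate 1 and 0.43 in WT replicate 4, the libraries with the highest rho with length, 0.45 and 0.43. It was -0.50 in 5xFAD replicate 3, which had the lowest rho. For the shorter orthologs the corresponding medians were 0.21, 0.08 and -0.36. In 5xFAD-Dp16 the other 3 libraries had medians of 0.04 to 0.16 for the longer orthologs, so the group stood less apart from 5xFAD replicates 1 and 2, at 0.19 and 0.08, than from replicates 3 and 4, at -0.50 and -0.24.

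**Figure D4:**
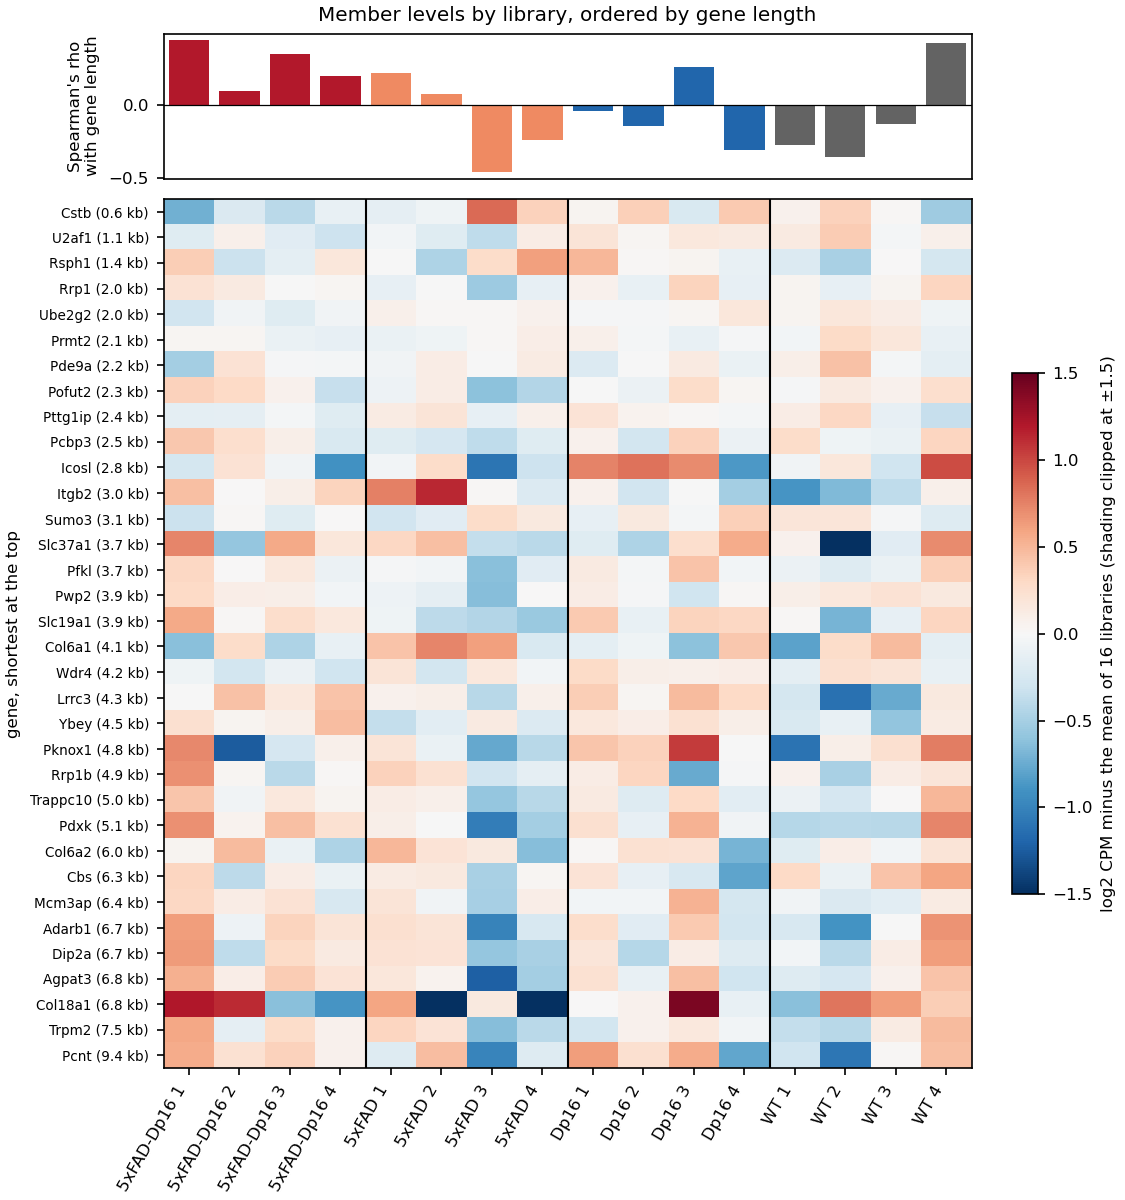
Log2 CPM of each tested ortholog minus its mean over the 16 libraries, rows ordered by gene length, with Spearman's rho between length and each library's deviation over all genes above. Long genes are low in 5xFAD replicate 3 (rho -0.46) and high in 5xFAD-Dp16 replicate 1 and WT replicate 4 (0.45 and 0.43), and Cstb runs opposite to them.

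Neighbours on the chromosome differed in the sign and size of their differences. The 28 genes on chromosome 10 spanned 2.26 Mb and the 9 on chromosome 17 spanned 0.81 Mb. At the distal end of the chromosome 10 block, Agpat3, Rrp1, Cstb and Pdxk lie in that order, and on the amyloid background their differences were 0.79, 0.32, -0.73 and 0.95. Cstb is separated from Rrp1 by 12.6 kb and from Pdxk by 9.12 kb. The run of Pttg1ip, Sumo3 and Ube2g2 lay between -0.15 and -0.18, next to Itgb2 at -0.0051. On chromosome 17, Cbs and Pknox1 lie 1.20 kb apart and had Dp16 differences of -0.53 and 0.43.

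**Figure D5:**
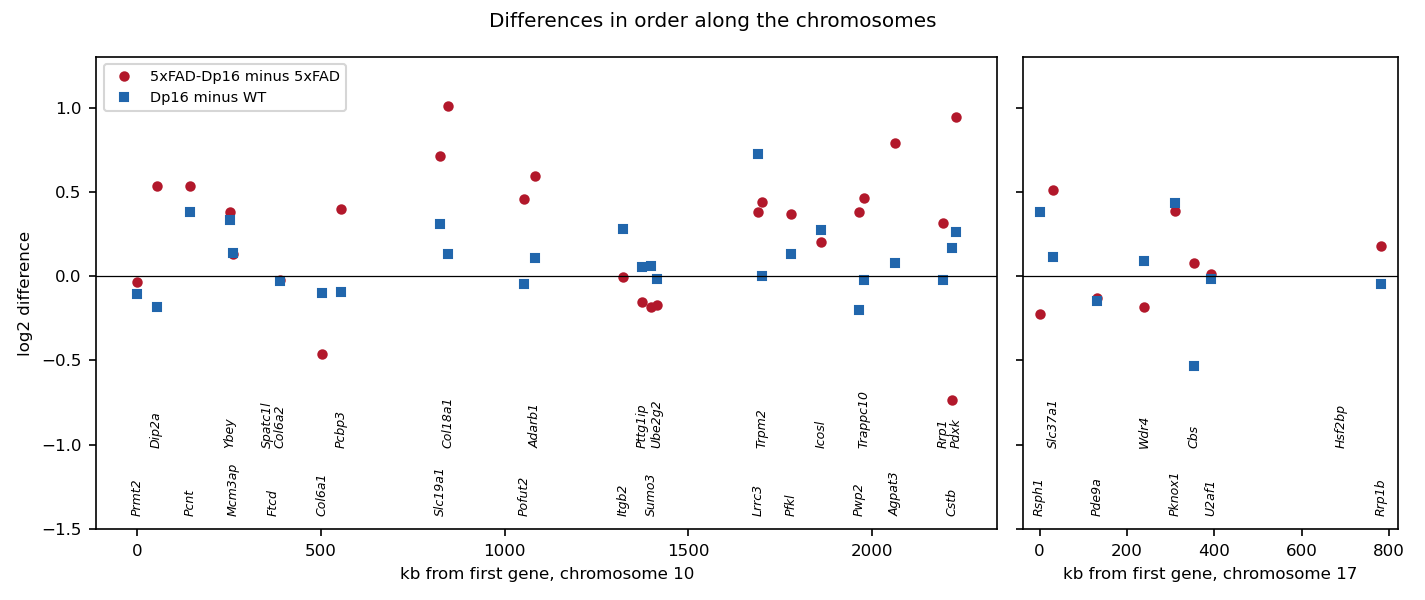
Log2 differences of the tested orthologs in chromosomal order, with red circles for 5xFAD-Dp16 minus 5xFAD and blue squares for Dp16 minus WT, against distance in kb from the first gene of the block. Cstb, at -0.73, stands between Rrp1 and Pdxk, at 0.32 and 0.95, and Cbs, at -0.53 in Dp16, stands beside Pknox1 at 0.43.

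The amyloid transgenes were the second contrast of the study. In 5xFAD against WT, 0 of the 34 orthologs passed edgeR's test, against 0.176% of genes, 0 passed DESeq2's, against 1.38%, and 3 had an unadjusted edgeR p under 0.05, against 10.7%. Itgb2, the beta 2 chain that pairs with Itgam in complement receptor 3 and marks microglia and other leukocytes in brain, had 14.8, 19.1, 8.78 and 7.53 CPM in 5xFAD and 4.64, 5.45, 6.66 and 9.15 CPM in WT. The 2 high 5xFAD libraries were those of the females, and the male libraries lay below the highest WT one. Its log2 difference was 0.90 (SE 0.26, edgeR adjusted p = 0.227, DESeq2 0.050), or 0.50 among males alone.

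In 5xFAD-Dp16 against Dp16, edgeR called 0 of the 34, against 0.0176% of genes, DESeq2 called 0, against 0.147%, and 2 had an unadjusted edgeR p under 0.05, against 5.29%. Itgb2 had 11.95, 8.70, 9.24 and 10.95 CPM in 5xFAD-Dp16 and 9.09, 7.07, 8.66 and 6.04 CPM in Dp16, a difference of 0.62 (SE 0.27, edgeR adjusted p = 0.758). Only Dp16 replicate 1 reached into the 5xFAD-Dp16 range. Averaged over both backgrounds, the 5xFAD effect on Itgb2 was 0.76 (SE 0.18, edgeR adjusted p = 0.149, DESeq2 0.016). Its DESeq2 call was the only one among the orthologs for that average, where edgeR called 0 of 34, against 0.188% of genes, and DESeq2 0.905% of genes, and 2 orthologs had an unadjusted edgeR p under 0.05, against 7.53%. edgeR also called Itgb2 without the filter on low counts, as for 0.360% of genes, and with length and GC trends removed, as for 0.235%.

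Markers of microglia differed beside Itgb2. The summed level of 9 microglial genes ran from 457 to 534 CPM in 5xFAD-Dp16, 632 to 894 in 5xFAD, 415 to 488 in Dp16 and 409 to 505 in WT, and that of 5 genes of activated microglia from 58.8 to 74.3, 88.7 to 192, 37.5 to 43.8 and 30.6 to 36.4 CPM in the same order. All 9 and all 5 had reads in each group, though Itgax, of the activated set, averaged 0.0131 CPM in WT. The part of these genes in the Itgb2 difference was not tested. Among the partners of Itgb2, Itgax, the alpha chain of complement receptor 4, passed edgeR's test in the average 5xFAD effect (adjusted p = 0.0023), with means of 1.22 CPM in 5xFAD-Dp16, 2.41 in 5xFAD, 0.0506 in Dp16 and 0.0131 in WT. Itgam, at 7.09, 8.25, 6.54 and 4.87 CPM, had a difference of 0.70 (SE 0.35, edgeR adjusted p = 0.490) in 5xFAD minus WT. Ctss, a cathepsin of microglia that Cstb can inhibit, passed the same test in 5xFAD minus WT, with 0.96 (SE 0.15, edgeR adjusted p = 0.0067), and Cstb stood at 0.27 (SE 0.22) in that comparison.

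The other orthologs with an unadjusted p under 0.05 in 5xFAD minus WT were lower. Pcbp3 had 27.2, 25.9, 23.6 and 27.0 CPM in 5xFAD and 37.2, 29.5, 28.8 and 38.4 CPM in WT, and Pwp2 had 16.3, 15.7, 11.02 and 17.3 CPM in 5xFAD and 18.3, 19.2, 20.2 and 19.1 CPM in WT. Neither pair of groups overlapped, as held for 5.48% of genes, and the differences were -0.37 and -0.35 (edgeR adjusted p = 0.437 and 0.426). In 5xFAD-Dp16 minus Dp16 the same 2 genes lay at 0.12 and 0.23, and there the groups without overlap were those of Ube2g2 and Wdr4, at -0.18 and -0.30, against 5.43% of genes. Cstb stood at -0.62 (SE 0.24, edgeR adjusted p = 0.758) in that comparison. The median of the 34 genes was -0.10 in 5xFAD minus WT, with 11 above 0, and 0.08 in 5xFAD-Dp16 minus Dp16, with 22 above 0. Without WT replicate 2 the first of these was -0.28. The comparisons share 5xFAD-Dp16, 5xFAD, Dp16 or WT libraries with the duplication contrasts, so a high or low library enters more than 1 of them.

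The interaction asks whether the duplication's difference on the amyloid background is unlike that without it. edgeR called 0 of the 34, against 0% of genes, DESeq2 called 0, against 0.143%, and 2 had an unadjusted edgeR p under 0.05, Cstb and Pwp2, against 9.35% of genes. For Cstb the difference of differences was -0.90 (SE 0.32, edgeR adjusted p = 0.522). Correcting for gene length gave -0.45, and leaving out 5xFAD replicate 3 gave -0.62. For Pwp2 it was 0.58 (SE 0.23, edgeR adjusted p = 0.522). Pdxk and Agpat3 lay at 0.68 (SE 0.36) and 0.71 (SE 0.35) (edgeR adjusted p = 0.522 for both), so their larger values on the amyloid background were not shown to differ from those in Dp16. Between females and males, edgeR called 0 of 34, against 0.0353% of genes, and 2, Itgb2 and Pdxk, had an unadjusted p under 0.05, higher in females by 0.46 and 0.45, against 4.03% of genes.

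A further 18 orthologs of human chromosome 21 genes on the same chromosomes were looked up from a list kept beside the 37, and 8 of them were tested. In Dp16 minus WT they lay between -0.02 and 0.16, with 6 above 0 and 0 called by edgeR. In 5xFAD-Dp16 minus 5xFAD they ran from -0.52 for Ndufv3, a subunit of mitochondrial complex I, to 0.98 for Sik1, a salt-inducible kinase (edgeR adjusted p = 0.167 and 0.221), and Abcg1, a sterol exporter, lay at 0.55 (edgeR adjusted p = 0.159). The trefoil factors Tff1, Tff2 and Tff3 had 0 reads in all libraries.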

How the data were processed

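The authors deposited a table of raw read counts per gene, whole numbers for 55385 genes with no normalization, and a table of RPKM values, which divide the counts by gene length and library total. HISAT2 2.1.0, HTSeq 0.6.1, SAMtools 1.5, FastQC 0.11.5 and bcl2fastq, with build GRCm38, are named per the submitters' processing notes; the role of each and the strand setting are not given in the sources used here. Per the labels' protocols, strand-specific libraries from TRIzol RNA were read as paired ends of 150 bases. The counts were analysed here with edgeR 4.0.16 in R 4.3.3: filterByExpr kept 17019 genes, TMM factors scaled the libraries, and all 16 libraries entered 1 robust quasi-likelihood model with genotype means and sex as an additive term (common biological coefficient of variation 0.266, median prior degrees of freedom 5.77). Tests were two-sided; p-values were adjusted by Benjamini-Hochberg across the whole table and called under 0.05. The SE of a log2 difference was computed here as its absolute value divided by the square root of edgeR's F statistic. The 95% intervals add and subtract that SE times a t quantile, and edgeR itself gives neither. CPM are counts divided by the TMM-scaled library total. RPKM served only for levels and lengths. Library totals of 12483286 to 20385010 set the precision, and low genes have wide intervals.

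Gene coordinates came from Gencode vM21, joined by gene identifier (55144 of 55385 matched), and promoters from RefSeq. The triplicated segment was taken as chromosome 16 from 75540514 to 97962622. Alternatives were DESeq2 1.42.0, RLE scaling, no filter on low counts, no sex term and males only. Further ones were removal of each library's length trend, the sample number as a block and each library left out. Shares of DESeq2 calls are over genes with an adjusted p: 11408 for 5xFAD-Dp16 against 5xFAD, 14706 for the interaction and 17014 otherwise. Without the filter, shares are over 29145 genes, with 36 orthologs tested, and among males alone over 17567 genes. The pipeline was tested on simulated counts, for the average duplication effect only. The simulation held no length or GC trend and no sex effect, so it cannot show how calls behave under those. The named genes are the 37 orthologs, with App and Thy1 as checks of genotype and paralogs, partners and cell type markers only where they passed the threshold or were needed beside an ortholog. One excitatory neuron marker is not reported here and stayed out of the marker sum. The orthologs and lists were chosen with earlier results of these data known.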

Additional observations from a re-analysis of the deposited data

Results flagged for a closer look

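Within single genotypes, 6 of 136 groups of 4 libraries, each for 1 ortholog, held a library whose gap to its nearest neighbour exceeded Dixon's 95% critical share of the range. That is 4.41%, and chance alone gives about 1 in 20. Pdxk stood at 102 CPM in WT replicate 4, where the other WT libraries held 45.5 to 46.3 CPM, and Pfkl stood at 112 CPM in the same library, against 76.9 to 82.6 CPM. WT replicate 4 is a library in which long genes were high. Lrrc3 stood at 5.28 CPM in 5xFAD replicate 3, against 7.45 to 7.54 CPM in the other 5xFAD libraries. Wdr4 stood at 31.9 CPM in Dp16 replicate 1, against 27.6 to 28.0 CPM, and Icosl at 1.88 CPM in Dp16 replicate 4, against 5.82 to 6.27 CPM. Col18a1 stood at 2.08 CPM in Dp16 replicate 3, against 0.643 to 0.741 CPM, on 41 reads.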

How the results depend on the processing

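Counts of called orthologs stayed at 0 under edgeR in all 7 comparisons with RLE scaling, no sex term, the length trend removed or any single library left out. For 5xFAD-Dp16 against 5xFAD, DESeq2 called 3 (6.49% of genes), no filter on low counts 4 (Pdxk, Agpat3, Adarb1 and Cstb; 7.60%) and males only 9 (22.5%): Agpat3, Pdxk, Adarb1, Trappc10, Slc19a1, Trpm2, Dip2a and Pofut2 higher and Cstb lower. The 5xFAD males are replicates 3 and 4. For the average duplication effect, no filter and males only each called 2, Pdxk and Agpat3 (3.76% and 14.2% of genes). For the average 5xFAD effect Itgb2 alone was called without the filter (1, 0.360%), with length and GC trends removed (1, 0.235%) and by DESeq2 (1, 0.905%).

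The orthologs' median was 0.061 for 5xFAD-Dp16 minus 5xFAD and -0.057 for the interaction with length and GC trends removed, an alternative chosen after seeing the data, and -0.33 for 5xFAD minus WT in males only; the cause was not tested. Trpm2 on the amyloid background was -0.032 in the first of these settings, against 0.44. The triplicated segment's median was 0.59 without the filter on the amyloid background, 0.60 without it and 0.59 in males only for the average effect. Leaving out single libraries gave orthologs' medians of -0.04 to 0.11 for Dp16 minus WT, 0.17 to 0.37 for 5xFAD-Dp16 minus 5xFAD, 0.08 to 0.21 for the average duplication effect, -0.28 to -0.092 for 5xFAD minus WT, 0.0094 to 0.22 for 5xFAD-Dp16 minus Dp16, -0.06 to 0.0069 for the average 5xFAD effect and 0.052 to 0.37 for the interaction, the last highest without Dp16 replicate 3. Without WT replicate 2 and 5xFAD replicate 3 together, also chosen after seeing the data, the medians of the duplication comparisons were 0.04 and 0.22. The sign held in every setting run for 15 of 34 orthologs in Dp16 minus WT and 22 of 34 in 5xFAD-Dp16 minus 5xFAD.

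Sample numbers do not pair the libraries: deviations of the 24 same-numbered pairs correlated between -0.36 and 0.32, and 1 of 16 libraries correlated best with its own number. With the number as a replicate block, 0 orthologs were called in each comparison, and the medians were 0.07 and 0.33 for the duplication comparisons. Depth limits Col18a1, Slc37a1, Rrp1b, Pknox1, Col6a2 and Icosl, whose group means lie under 5 CPM.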
